A study of Mus musculus with 469 samples.

Results

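Neurog1-eGFP cells of the mouse olfactory epithelium were compared between 14 days after olfactory bulbectomy and the uninjured state. Both groups came from FVB mice that carried the Neurog1-eGFP transgene, were 8 weeks old by the labels, and were sorted for eGFP after enzymatic dissociation of the epithelium. The transgene reports activity of the Neurog1 gene, and because eGFP is stable it can also mark cells that have recently left the Neurog1 state. Single cells were captured with the Fluidigm C1 system, and their polyadenylated RNA was made into Nextera XT libraries. Bulbectomy is the surgical removal of the olfactory bulb, the target of the olfactory axons. Libraries were kept if 1000 or more genes had a value of at least 1. This left 25 of 26 libraries at 14 days and 46 of 61 uninjured libraries, 71 of 87 in all and 21.6% of the libraries kept in the whole series. Neurog1-eGFP cells taken 5 days after bulbectomy (48 of 51 libraries) are given only as values beside the first 2 groups, and no comparison with them is made.

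The labels named no animals, so each group was treated as 1 sample. No test between the groups was made, no p-value is given, and no difference has a replicate check. Levels are CPM, the share of a cell's column sum times 1000000, and detection of a gene meant at least 10 CPM in that cell. Ratios are log2 ratios of mean CPM + 1, 14 days over uninjured, which understate the difference of low genes. Intervals on shares are exact 95% Clopper-Pearson intervals. They reflect how many cells were counted and take no account of differences between animals.

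Olfactory sensory neurons are replaced throughout life. Globose basal cells divide and give rise to Neurog1 positive precursors, which become immature neurons rich in Gap43 and then mature neurons rich in olfactory marker protein, with odour transduction in their cilia. When the bulb is removed, neurons lose their target and die, and those that replace them in its absence are short-lived. Polycomb repressive complexes place and read repressive histone marks, and histone deacetylases remove acetyl groups from histones. Both kinds of enzyme take part in switching gene programmes as progenitors become neurons.

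The sort label was checked against marker genes. Neurog1, the proneural factor behind the reporter, was found in 12 of 25 cells at 14 days and 23 of 46 uninjured cells. Ncam1, a neural adhesion molecule, Map1b, a microtubule protein of growing axons, and Ebf2, an early B-cell factor of the olfactory lineage, were each found in 25 of 25 cells at 14 days and 46 of 46 uninjured cells. The 14 immune markers were all at 0 in the cells at 14 days, and in the uninjured cells 13 of 14 were at 0 and the summed level reached 5.95 CPM. Of 14 sustentacular (supporting cell) markers, 3 were at 0 at 14 days and 2 in uninjured cells. Their summed CPM lay between 0 and 1712 at 14 days and between 0 and 942 in uninjured cells, with medians of 53 at 14 days and 0.0166 uninjured. Microvillar cell markers stood out in 1 uninjured library, at 62447 CPM, of which Coch gave 56113, while the highest library at 14 days had 3739. Without that library Stoml3, Hdac2 and Suz12 had log2 ratios of -6.55, 1.28 and -2.15, close to the values given below.

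Depth was higher at 14 days in the median. The recovered fragments per cell ran between 131391 and 2172041 at 14 days (median 1099226) and between 77284 and 1641981 in uninjured cells (median 848317.5), with medians of 2697 genes at 14 days and 2864.5 uninjured. A Y-linked gene without Xist was found in 19 of 25 cells at 14 days and 25 of 46 uninjured cells, and Xist in 0 of 25 cells at 14 days and 9 of 46 uninjured cells. Both a Y-linked gene and Xist were found in 4 of 46 uninjured cells and 0 of 25 cells at 14 days, and the cause was not tested. The labels do not give the sex of the animals. Values within the cells with a Y-linked gene and no Xist are given below where they differ. Over 9992 measured genes, those averaging at least 5 CPM in one group or both, the median log2 ratio was -0.17, and scaling by the median of ratios placed it at 0.031. Ratios are read against this general shift. Single cells are sparse, and a 2-fold difference was common: 22% of measured genes were 2-fold or more above the uninjured mean at 14 days, and 29.9% were 2-fold or more below it.

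Genes of the mature olfactory sensory neuron were lower at 14 days. Of 22 listed markers 19 were measured (Gfy was not in the table used here, and Cngb1 and Kcnmb3 were below the limit), and 18 of the 19 had a lower mean at 14 days, against 54.8% of all measured genes. At least 2-fold lower were 10 of 19, against 29.9% of all genes, and 0 of 19 were at least 2-fold higher, against 22%. The list's median log2 ratio was -1.13, beside -0.17 over all genes. Calb2, the calcium-binding protein calretinin, was the 1 member with a higher mean, at 184.2 CPM at 14 days and 137.4 CPM in uninjured cells. In cells with a Y-linked gene and no Xist, 10 of 19 were at least 2-fold lower and the median was -1.23. A lower mean can come from fewer cells with a gene or from less of it per cell, so shares and levels per cell are given beside it.

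Stoml3, a stomatin family membrane protein of olfactory neurons, had the lowest ratio of the list. It was found in 1 of 25 cells at 14 days (4%, interval 0.101 to 20.4) and 22 of 46 uninjured cells (47.8%, 32.9 to 63.1). Its CPM had a lowest, median and highest value of 0, 0 and 158.1 at 14 days, and 0, 3.57 and 7065 in uninjured cells. The single positive cell at 14 days lay far below the upper uninjured cells. The means were 7.02 CPM at 14 days and 734 CPM in uninjured cells, a log2 ratio of -6.52. In the 5 day group it was found in 14.6% of cells.

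Omp, the olfactory marker protein that defines mature neurons, was found in 8 of 25 cells at 14 days and 27 of 46 uninjured cells. Its highest cell reached 732 CPM at 14 days and 7821 CPM in uninjured cells, and the upper quartiles were 31.2 CPM at 14 days and 1146 CPM uninjured. Among the cells with Omp, Stoml3 was found in 1 of 8 at 14 days and 19 of 27 uninjured (12.5%, interval 0.316 to 52.7, and 70.4%, 49.8 to 86.2). The mean CPM of Omp within these cells was itself 301.2 at 14 days and 1454 in uninjured cells, so the Omp-bearing cells of the groups were not alike in level.

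S100a5, a calcium-binding protein of active olfactory neurons, averaged 37.9 CPM at 14 days and 639.8 CPM in uninjured cells. It was found in 20% of cells at 14 days and 19.6% of uninjured cells, and 67.9% of the uninjured sum came from 1 cell at 19991 CPM. The groups thus differed in the level of few cells and hardly in the share with S100a5. Stoml3 and S100a5 both lie on mouse chromosome 3. Their promoters are shown because these are the members with the lowest ratios of the list. The sequences run from 250 bases before to 50 bases after the annotated start on the plus strand, as given by RefSeq for build GRCm38.p6, at chr3:53488457-53488756 for Stoml3 and chr3:90608272-90608571 for S100a5.
Stoml3: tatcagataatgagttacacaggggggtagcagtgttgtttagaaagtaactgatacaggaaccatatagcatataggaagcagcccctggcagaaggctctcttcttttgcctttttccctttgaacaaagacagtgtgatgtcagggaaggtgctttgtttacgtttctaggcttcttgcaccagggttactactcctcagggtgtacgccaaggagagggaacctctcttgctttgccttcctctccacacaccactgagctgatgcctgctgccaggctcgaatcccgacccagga
S100a5: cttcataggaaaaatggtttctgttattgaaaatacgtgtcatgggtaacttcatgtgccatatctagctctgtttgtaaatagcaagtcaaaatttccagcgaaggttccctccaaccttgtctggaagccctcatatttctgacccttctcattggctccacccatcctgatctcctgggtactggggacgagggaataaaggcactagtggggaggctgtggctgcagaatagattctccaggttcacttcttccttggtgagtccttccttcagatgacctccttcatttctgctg
Of the 10 mature genes that were at least 2-fold lower, 8 had promoters in the RefSeq table, 12 promoters in all. Omp and Gnal had none there and were not searched. The palindromic consensus of early B-cell factors, the Olf-1/EBF site, and TAATTA, a core bound by homeodomain factors, were sought on both strands. Neither was in any of the 12 windows. Of all 32851 promoters of that length 0.904% held the first and 5.29% the second. No capitals are used because no match was found, which says only that these letters are not in these windows.

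The transduction cascade did not differ evenly. Gnal, the olfactory G protein alpha subunit, averaged 515 CPM at 14 days and 1424 CPM in uninjured cells, with shares of 68% at 14 days and 73.9% uninjured. Its gamma partner Gng13 averaged 75.9 CPM at 14 days and 205.1 CPM uninjured, and Adcy3, the adenylyl cyclase that makes the second messenger, 31.8 CPM at 14 days and 77.8 CPM uninjured. The channel subunits opened by cyclic AMP differed from each other. Cnga4 averaged 37 CPM at 14 days and 150.6 CPM in uninjured cells, a log2 ratio of -1.99. Cnga2, the subunit needed for a working channel, averaged 510.0 CPM at 14 days and 518 CPM uninjured and was found in 44% of cells at 14 days and 45.7% of uninjured cells, a log2 ratio of -0.021 that was 0.15 with median-of-ratios scaling. Pde1c, which breaks down the second messenger, averaged 144.6 CPM at 14 days and 317.9 CPM uninjured, and Ano2, the chloride channel that amplifies the response, 17.4 CPM at 14 days and 30.6 CPM uninjured.

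The groups differed in the upper range of the summed mature markers. The summed CPM of the list had a lowest, median and highest value per cell of 5.59, 2699.6 and 12959.8 at 14 days, and of 20.1, 2896 and 46478 in uninjured cells. The medians were close, and the upper quartiles were 4606 at 14 days and 8313 uninjured. The highest cell at 14 days was exceeded by 11 of 46 uninjured cells (23.9%, interval 12.6 to 38.8). A median of 7 markers per cell was found at 14 days and 7.5 in uninjured cells.

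Odorant receptors were present in most cells of both groups. With a receptor counted at 50 CPM, 19 of 25 cells at 14 days had one among 1116 Olfr entries (76%, interval 54.9 to 90.6), and 38 of 46 uninjured cells (82.6%, 68.6 to 92.2). More than 1 receptor was found in 44% of cells at 14 days and 50% of uninjured cells. The most abundant receptor of a cell had a median of 1510.2 CPM at 14 days and 586 CPM in uninjured cells, and held a median of 97.3% of the receptor CPM at 14 days and 77.3% uninjured. A top receptor of 1000 CPM or more was found in 52% (31.3 to 72.2) of cells at 14 days and 43.5% (28.9 to 58.9) of uninjured cells, and these intervals overlap. The strongest at 14 days were Olfr801 at 20049.6 CPM, Olfr726 at 14948 CPM and Olfr1225 at 12449 CPM. In uninjured cells they were Olfr16 at 66856 CPM, Olfr138 at 12837 CPM and Olfr1252 at 12227 CPM. Olfr801 passed 50 CPM in 2 cells of its group and the other 5 in 1 cell each, and Olfr genes have close relatives that can share reads. The receptor chaperones Rtp1 and Rtp2, which carry receptors to the membrane, were also compared. Rtp1 averaged 336.4 CPM at 14 days and 665 CPM uninjured, and Rtp2 110.6 CPM at 14 days and 113.7 CPM uninjured.

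Regulators of receptor choice were mostly a little lower. Of 16 measured, 12 had a lower mean at 14 days, against 54.8% of all genes, with a median log2 ratio of -0.29. At least 2-fold lower was 1 (Adcy3), against 29.9% of all genes, and at least 2-fold higher 1 (Cbx5), against 22%. With median-of-ratios scaling 11 of 16 were lower, with a median of -0.14. Lhx2, a LIM homeodomain factor required for olfactory neurons, averaged 466.9 CPM at 14 days and 888 CPM in uninjured cells, and was found in 25 of 25 cells at 14 days and 44 of 46 uninjured cells. Ebf3 averaged 238.1 CPM at 14 days and 473 CPM uninjured. Ebf1 went the other way, at 2183 CPM at 14 days and 1265 CPM in uninjured cells, with medians of 1783 CPM at 14 days and 889.8 CPM uninjured. Ebf2 was at 5409 CPM at 14 days and 5702 CPM uninjured, and its log2 ratio of -0.076 was 0.13 with median-of-ratios scaling. Lbr, the lamin B receptor whose absence in mature neurons allows receptor genes to cluster in the nucleus, averaged 372.8 CPM at 14 days and 215.04 CPM uninjured and was found in 24% of cells at 14 days and 32.6% of uninjured cells. Kdm1a, a demethylase that acts when a receptor is chosen, averaged 115.4 CPM at 14 days and 184.1 CPM uninjured.

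The direction of immature neuron genes depended on the scaling. Of 19 measured, 9 were higher at 14 days, against 45.2% of all genes, and 10 lower, and the median log2 ratio was -0.043. At least 2-fold higher was 1, against 22% of all genes, and 3 were at least 2-fold lower, against 29.9%. With median-of-ratios scaling 13 were higher and 6 lower, 5 were at least 2-fold higher, and the median was 0.25. After thinning 12 were higher and 7 lower. Their summed CPM had medians of 10709.8 at 14 days and 10946 in uninjured cells. Gap43, the growth-associated protein of extending axons, was found in 18 of 25 cells at 14 days (72%, interval 50.6 to 87.9) and 24 of 46 uninjured cells (52.2%, 36.9 to 67.1). Its means were 849.6 CPM at 14 days and 466.5 CPM uninjured and its medians 448.9 CPM at 14 days and 32.9 CPM uninjured. Gng8, the G protein gamma subunit of immature neurons, averaged 53.3 CPM at 14 days and 115.3 CPM uninjured. Dpysl3, a phosphoprotein of growth cones, averaged 983 CPM at 14 days and 718 CPM uninjured, and Dcx, which binds microtubules in young neurons, 1204 CPM at 14 days and 954 CPM uninjured. Crmp1, a relative of Dpysl3, averaged 198.8 CPM at 14 days and 115.3 CPM uninjured, and its log2 ratio of 0.78 was -0.25 in cells with a Y-linked gene and no Xist.

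Precursor genes had a split that likewise depended on the scaling. Of 15 measured, 7 were higher, against 45.2% of all genes, and 8 lower, while with median-of-ratios scaling 11 were higher and 4 lower. Past 2-fold on the higher side were 2 of 15 (Mfng and Insm1), against 22% of all genes. Insm1, a zinc finger factor of basal progenitors, was found in 60% of cells at 14 days and 39.1% of uninjured cells, at means of 242.9 CPM at 14 days and 113.8 CPM uninjured. Neurog1 averaged 80.2 CPM at 14 days and 42.2 CPM uninjured, Neurod1, which acts after it, 309.2 CPM at 14 days and 242.9 CPM uninjured, and Tex15 5675 CPM at 14 days and 5946 CPM uninjured. The direction of Tex15 turned with median-of-ratios scaling. Globose basal cell markers had a median log2 ratio of 0.54 over 8 measured, with 3 (Kit, Mki67 and Ccnd1) past 2-fold on the higher side, against 22% of all genes. Lgr5, Pax6 and Rgs16 were below the limit.

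**Figure D1:**
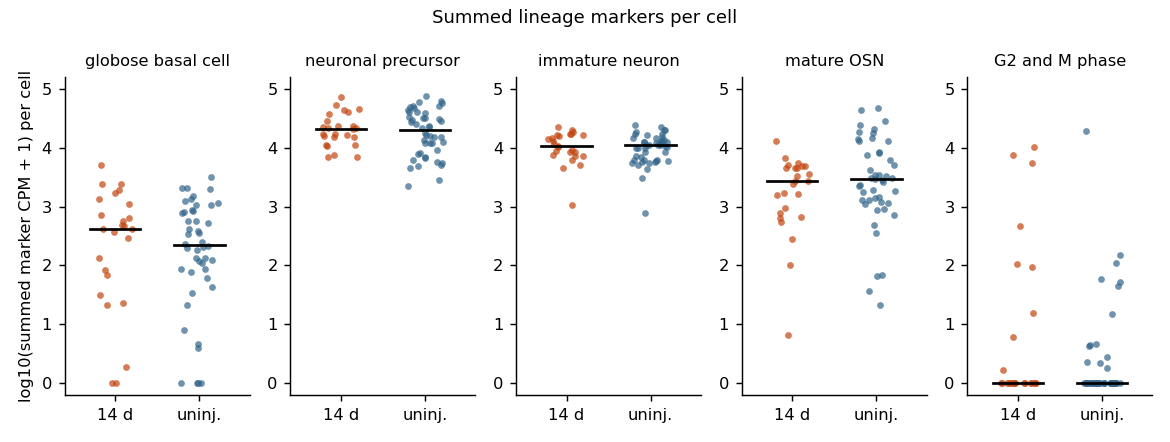
Summed CPM per cell of 5 marker lists on a log10(CPM + 1) axis, with each point a cell (14 d, n = 25; uninj., n = 46) and each line the median. Precursor and immature sums overlap, while 11 uninjured cells lie above the highest mature sum at 14 days, 12959.8 CPM.

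Cell division genes came from few cells. Of 18 measured G2 and M phase genes, 14 had a higher mean at 14 days, against 45.2% of all genes, 9 were at least 2-fold higher, against 22%, and 2 (Nusap1 and Ccna2) at least 2-fold lower, with a median log2 ratio of 0.98. In cells with a Y-linked gene and no Xist, 6 of 18 were at least 2-fold higher and the median was 0.43. Without the highest cell of each group per gene the count was 13 and the median 2.64. The top 2 cells held 98.5% of the summed CPM in uninjured cells and 74.5% at 14 days. Leaving out the highest cell thus removed most of the uninjured signal, so the values of 13 and 2.64 cannot show a larger difference. A summed CPM of 1000 or more was found in 3 of 25 cells at 14 days (12%, interval 2.55 to 31.2), in 1 of 46 uninjured cells (2.17%, 0.055 to 11.5) and in 2 of 48 cells at 5 days. The highest of the first 2 groups was the uninjured cell, at 19054 CPM, against 10331 CPM for the highest at 14 days. Top2a, the topoisomerase of dividing cells, averaged 195.9 CPM at 14 days and 95.9 CPM in uninjured cells, and in cells with a Y-linked gene and no Xist its log2 ratio was -0.018 instead of 1.02. S phase genes were split, with 5 higher and 7 lower. Genes of cell cycle exit were split as well, with 6 of 12 higher and 6 lower. Past 2-fold on the higher side were 3 of 12 (Cdkn1a, Cdkn1b and Cdkn1c, inhibitors of cyclin-dependent kinases), against 22% of all genes. On the lower side they were 4 of 12 (Rbl1, Rbl2, E2f4 and Gadd45g), against 29.9%. Thinning left 1 on the higher side.

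Among chromatin regulators, the subunits of Polycomb repressive complex 2 went in both directions. Of 9 measured, 4 were higher and 5 lower, and 0 were at least 2-fold higher, against 22% of all genes. Ezh1, Suz12 and Mtf2 were at least 2-fold lower, near the 29.9% of all genes. Suz12, a core subunit needed for a stable complex, averaged 138.4 CPM at 14 days and 611 CPM in uninjured cells, a log2 ratio of -2.13. Its lowest, median and highest CPM were 0, 24.5 and 799.7 at 14 days, and 0, 137.6 and 4310.0 in uninjured cells. The shares of cells with Suz12 were close, at 64% at 14 days and 67.4% uninjured, and their order turned under median-of-ratios scaling. Mtf2, an accessory subunit that helps the complex find its targets, averaged 288.4 CPM at 14 days and 1081 CPM uninjured, with medians of 182.98 CPM at 14 days and 197.9 CPM uninjured. Of the uninjured Mtf2 sum, 30.1% came from 1 cell at 14987 CPM, and without the highest cell of each group the log2 ratio was -1.72 instead of -1.90. Ezh1, the other catalytic subunit beside Ezh2, averaged 6.62 CPM at 14 days and 102.4 CPM uninjured. Jarid2, another accessory subunit, averaged 819 CPM at 14 days and 554 CPM in uninjured cells, with medians of 708 CPM at 14 days and 124.99 CPM uninjured.

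Ezh2, the main catalytic subunit in dividing cells, was found in 19 of 25 cells at 14 days (76%, interval 54.9 to 90.6) and 26 of 46 uninjured cells (56.5%, 41.1 to 71.1). Its mean was 504 CPM at 14 days and 349.8 CPM in uninjured cells, a log2 ratio of 0.52, while the medians were 81.5 CPM at 14 days and 76.8 CPM uninjured. Its highest cells reached 4319 CPM at 14 days and 3029.9 CPM uninjured, and the 14 day cell held 34.3% of its group's sum. In cells with a Y-linked gene and no Xist the log2 ratio of Ezh2 was -0.066, and with pooled fragments 0.10. Among cells with Neurog1 the means of Ezh2 were 480.2 CPM at 14 days and 505 CPM in uninjured cells. The other stage markers gave the opposite order, with 317.1 CPM at 14 days and 210.2 CPM in uninjured cells among cells with Gap43, 299.6 CPM at 14 days and 191.7 CPM in uninjured cells among cells with Omp, and 359.7 CPM at 14 days and 295.7 CPM in uninjured cells among cells with Rtp1. The difference in the share of cells with Ezh2, 19.5 points, was 3.83 points when 50 CPM was asked for. The size of the difference in Ezh2 thus varied with these choices, its sign turned in some of them, and the intervals overlap. On the FPKM scale, which allows genes to be compared per length, the mean levels of Ezh2 were 196.6 at 14 days and 135.99 uninjured, those of Suz12 32.2 at 14 days and 140.5 uninjured, and those of Jarid2 138.1 at 14 days and 93.5 uninjured.

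Hdac2, a class I histone deacetylase, was higher in mean at 14 days. It averaged 1033 CPM at 14 days and 466.98 CPM in uninjured cells, a log2 ratio of 1.14 that lay between 1.10 and 1.62 under the alternatives. Its lowest, median and highest CPM were 0, 257.4 and 4802 at 14 days, and 0, 113.1 and 3583 in uninjured cells, so the groups overlap. It was found in 80% (interval 59.3 to 93.2) of cells at 14 days and 69.6% (54.2 to 82.3) of uninjured cells. Among cells with Gap43 the mean of Hdac2 was 1134 CPM at 14 days and 613 CPM in uninjured cells, and among cells with Omp it was 358.2 CPM at 14 days and 414.9 CPM in uninjured cells. With Neurog1 the means were 857.7 CPM at 14 days and 587.5 CPM uninjured, and with Rtp1 1157 CPM at 14 days and 253.9 CPM uninjured. The medians reversed the order of the means with Omp (180.6 CPM at 14 days and 33.7 CPM uninjured) and with Neurog1 (274.7 CPM at 14 days and 285.3 CPM uninjured). Hdac2 and Ezh2 were found together in 15 of 25 cells at 14 days and 22 of 46 uninjured cells, and Hdac2 with Stoml3 in 0 of 25 cells at 14 days and 12 of 46 uninjured cells. Stoml3 itself was found in only 1 cell at 14 days, so its joint count there could be at most 1 and cannot show that the genes exclude each other. Hdac1, the closest relative of Hdac2, was below the limit. Hdac6 and Hdac3 also passed 2-fold on the higher side and Hdac10 on the lower side, so that 3 of 8 measured deacetylases were past 2-fold on the higher side, against 22% of all genes. Their median log2 ratio was 0.76. That median turned to -0.35 without the 3 libraries with 5000 or more genes, an alternative added after the data were seen.

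Proteins that work with deacetylases were mostly lower. Of 16 measured partners, 12 had a lower mean, against 54.8% of all genes, with a median log2 ratio of -0.60. At least 2-fold lower were 5 of 16 (Gatad2a, Sap18, Gatad2b, Mta1 and Mta2), a share near the 29.9% of all genes, and the count was 1 with median-of-ratios scaling and 2 with the FPKM table. Ncor1, the nuclear receptor corepressor, was found in 48% (interval 27.8 to 68.7) of cells at 14 days and 71.7% (56.5 to 84) of uninjured cells, at means of 178.7 CPM at 14 days and 350.3 CPM uninjured. Polycomb repressive complex 1 was divided, with 5 of 15 higher by 2-fold or more, against 22% of all genes, and 7 at least 2-fold lower, against 29.9%. Without the highest cell of each group per gene these counts were 3 and 3. Rnf2, its ubiquitin ligase, averaged 398.04 CPM at 14 days and 167.7 CPM in uninjured cells, while the chromobox reader Cbx6 averaged 3.95 CPM at 14 days and 24.2 CPM uninjured.

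Of 9 genes of DNA methylation, 4 were 2-fold or more higher (Mbd1, Dnmt3b, Uhrf1 and Tet2), against 22% of all genes, and 2 at least 2-fold lower, among them Dnmt1, against 29.9%. In cells with a Y-linked gene and no Xist 2 of 9 were at least 2-fold higher, beside 2568 of 9577 genes measured in those cells. Dnmt1, which copies methylation after replication, was found in 1 of 25 cells at 14 days and 10 of 46 uninjured cells. The oxidising enzymes Tet1, Tet2 and Tet3 all had higher means at 14 days. Tet3 was found in 84% of cells at 14 days and 63% of uninjured cells at means of 273.3 CPM at 14 days and 172.7 CPM uninjured, though its log2 ratio of 0.66 was 0.047 in cells with a Y-linked gene and no Xist. Kdm6b, a demethylase that removes the Polycomb mark, averaged 171.5 CPM at 14 days and 84.1 CPM uninjured and was found in 96% of cells at 14 days and 87% of uninjured cells. Of 9 measured genes of the trithorax and H3K36 list, which holds Kdm6b, 6 were higher and 3 lower, with a median log2 ratio of 0.34. In cells with a Y-linked gene and no Xist 5 of 9 were at least 2-fold higher, beside 2568 of 9577 genes measured there. Kdm6b alone was at least 2-fold higher over all cells, against 22% of all genes. The subunits Wdr5 and Dpy30 were at least 2-fold lower, against 29.9%. Wdr5 averaged 6.27 CPM at 14 days and 118.7 CPM uninjured, and Dpy30 40.5 CPM at 14 days and 110.9 CPM uninjured. Cbx5, a heterochromatin protein, averaged 290.3 CPM at 14 days and 132.2 CPM uninjured. Arid1a, a subunit of the BAF remodelling complex, was found in 88% at 14 days and 67.4% uninjured, and the remodeller Chd8 in 52% at 14 days and 28.3% uninjured, whereas Arid2 of the related PBAF complex averaged 223.4 CPM at 14 days and 539 CPM uninjured.

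**Figure D2:**
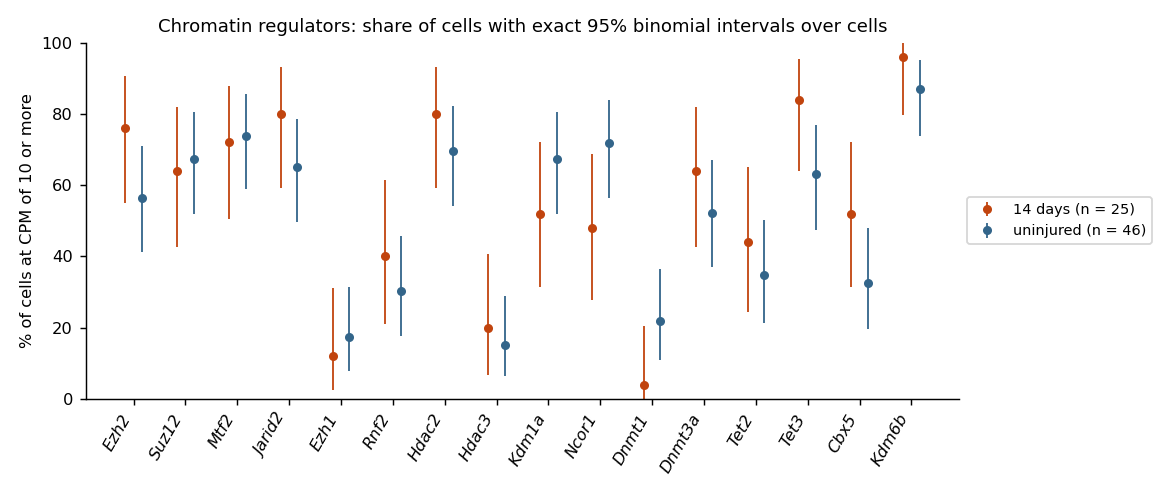
Percent of cells with each of 16 chromatin genes at 10 CPM or above, 14 days (n = 25) left of uninjured (n = 46), with exact 95% binomial intervals over cells. Ezh2 stands at 76% at 14 days and 56.5% uninjured, Dnmt1 at 4% at 14 days and 21.7% uninjured, and every pair of intervals overlaps.

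Ssr1, which assists new proteins through the translocon into the endoplasmic reticulum, was found in 18 of 25 cells at 14 days (72%, interval 50.6 to 87.9) and 15 of 46 uninjured cells (32.6%, 19.5 to 48). Its means were 1025 CPM at 14 days and 385.3 CPM uninjured and its medians 533 CPM at 14 days and 0 CPM uninjured. The 5 day group had it in 68.8% of cells. Of 21 measured genes of this step, 15 were higher, against 45.2% of all genes, and 5 were at least 2-fold higher, against 22%, with a median log2 ratio of 0.49. With median-of-ratios scaling 10 of 21 were at least 2-fold higher, beside 2567 of 10002 measured genes under that scaling. Sec61a1, the channel itself, averaged 461.7 CPM at 14 days and 281.7 CPM uninjured, and Srp68 of the signal recognition particle 92 CPM at 14 days and 8.77 CPM uninjured. The unfolded protein response was mixed, with 4 of 22 higher by 2-fold or more and 5 at least 2-fold lower. Both shares were below the 22% and 29.9% of all genes. Edem1, which sends misfolded proteins to degradation, was found in 40% of cells at 14 days and 15.2% of uninjured cells at means of 555 CPM at 14 days and 149.1 CPM uninjured, while the sensor Atf6 was found in 12% at 14 days and 32.6% uninjured at 22.6 CPM at 14 days and 96.9 CPM uninjured. Ppp1r15b, a phosphatase subunit that restores translation, was found in 68% at 14 days and 30.4% uninjured, and its intervals, apart at full depth, overlapped after thinning.

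Slc24a5, a potassium-dependent sodium and calcium exchanger best known from pigment cells, was found in 11 of 25 cells at 14 days (44%, interval 24.4 to 65.1) and 43 of 46 uninjured cells (93.5%, 82.1 to 98.6). Its median and upper quartile were 0.477 and 213.7 CPM at 14 days, and 728 and 1165 CPM in uninjured cells. The highest cell of both groups was at 14 days, with 6905 CPM and 72% of its group's sum. Without the highest cell of each group the log2 ratio was -2.80 instead of -1.08. Among cells with Gap43, Slc24a5 was found in 5 of 18 at 14 days and 24 of 24 uninjured. With Omp it was found in 4 of 8 at 14 days and 26 of 27 uninjured, and with Rtp1 in 4 of 12 and 26 of 27. The groups were closer among cells with Neurog1, at 7 of 12 (interval 27.7 to 84.8) at 14 days and 21 of 23 (72 to 98.9) uninjured. These intervals overlap, and the means there were 722 CPM at 14 days and 940 CPM uninjured. The 5 day group had it in 50% of cells. Pclo, a scaffold of the presynaptic active zone, was found in 68% (interval 46.5 to 85.1) of cells at 14 days and 97.8% (88.5 to 99.9) of uninjured cells, at medians of 128.9 CPM at 14 days and 463.9 CPM uninjured.

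Ion channel genes had lower means in 15 of 18 measured, against 54.8% of all genes, with 7 at least 2-fold lower, against 29.9%, 3 at least 2-fold higher, against 22%, and a median log2 ratio of -0.73. Kcnc4, a voltage-gated potassium channel, was found in 0 of 25 cells at 14 days (a limit of 12% if 3 cells are allowed for, and of 13.7% by the exact interval) and in 11 of 46 uninjured cells. Scn3b, a sodium channel beta subunit, averaged 51.9 CPM at 14 days and 238.2 CPM uninjured, and Scn9a, a main voltage-gated sodium channel of these neurons, 1232 CPM at 14 days and 1875 CPM uninjured. Of 22 presynaptic genes, 7 were at least 2-fold lower, near the share of all genes, among them Cplx2, Syt1 and Stx1a. Syt1, the calcium sensor of vesicle release, averaged 53.2 CPM at 14 days and 143.2 CPM uninjured. Of 18 adhesion genes 6 and of 20 guidance genes 4 were at least 2-fold lower, against 29.9% of all genes. With median-of-ratios scaling the counts were 4 and 3. Kirrel2, an adhesion molecule whose level follows neuronal activity, was among the 6, at 24.3 CPM at 14 days and 54.6 CPM uninjured. Respiratory chain genes were lower in 15 of 20, against 54.8% of all genes, with a median log2 ratio of -0.42. At least 2-fold lower was 1 (Ndufb5), against 29.9%. With median-of-ratios scaling 12 of 20 were lower, with a median of -0.17 beside 0.031 over all genes.

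**Figure D3:**
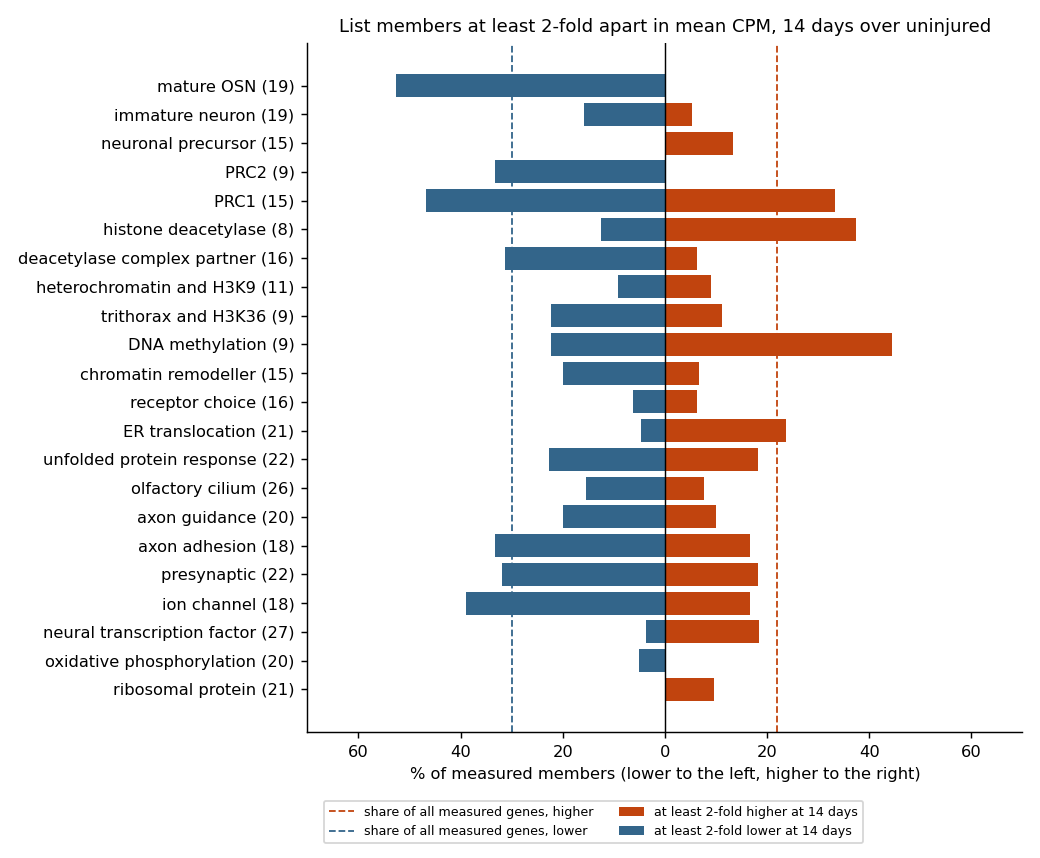
Percent of the measured members of 22 gene lists (number in brackets) that were at least 2-fold higher (right) or lower (left) in mean CPM at 14 days. Dashed lines mark 22% and 29.9%, the shares of all 9992 measured genes, and the mature neuron list reaches past the second with 10 of 19.

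Over all 9992 measured genes, the intervals on the share of cells did not overlap for 15 genes with a higher share at 14 days (0.15%) and 14 with a lower share (0.14%). These 29 include Stoml3, Slc24a5, Pclo and Ssr1, and none of the chromatin genes described above. When cells were thinned to 200000 fragments each, which left 24 cells at 14 days and 44 uninjured cells, 13 of the 29 still had intervals apart. All 29 had the same direction of share in cells with a Y-linked gene and no Xist. Intervals that do not overlap are a description here, not a test.

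Among genes with a higher share, Paxbp1, a PAX-binding protein, was found in 22 of 25 cells at 14 days (88%, interval 68.8 to 97.5) and 20 of 46 uninjured cells (43.5%, 28.9 to 58.9), at medians of 775 CPM at 14 days and 3.09 CPM uninjured. It was in 39.6% of cells at 5 days. Cirbp, a cold-inducible RNA-binding protein, was in 92% at 14 days and 56.5% uninjured, at means of 85.3 CPM at 14 days and 68.2 CPM uninjured. Lyst, a regulator of lysosome size, was in 48% at 14 days and 6.52% uninjured, Cenpw, a centromere protein, in 28% at 14 days and 2.17% uninjured, and Eya3, a phosphatase and transcriptional coactivator, in 44% at 14 days and 10.9% uninjured. The intervals of Eya3 overlapped after thinning. Sec22b, a trafficking SNARE, was in 48% at 14 days and 13% uninjured, although its means were 119.7 CPM at 14 days and 105.9 CPM uninjured, and the highest uninjured cell reached 4102 CPM. The log2 ratio of Sec22b was 0.17, and -0.62 in cells with a Y-linked gene and no Xist. Tmem181b-ps was in 48% of cells at 14 days and 0 of 46 uninjured cells, with a limit of 6.52% if 3 cells are allowed for and of 7.71% by the exact interval. Its name marks it as a pseudogene, which can share reads with its parent gene, so its counts are uncertain.

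Among genes with a lower share, Glul, glutamine synthetase, was in 16% at 14 days and 54.3% uninjured. Fbxw2, an F-box protein, and Vps54, a subunit of a Golgi tethering complex, were in 0 of 25 cells at 14 days, with the same limits as for Kcnc4, and in 28.3% and 26.1% of uninjured cells. Their shares at 5 days were 33.3% and 29.2%. B9d2, a protein of the ciliary transition zone, was in 8% at 14 days and 41.3% uninjured. The intervals of Fbxw2, Vps54 and B9d2 overlapped after thinning, and on the lower side only Stoml3, Slc24a5, Pclo and Glul still had intervals apart.

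**Figure D4:**
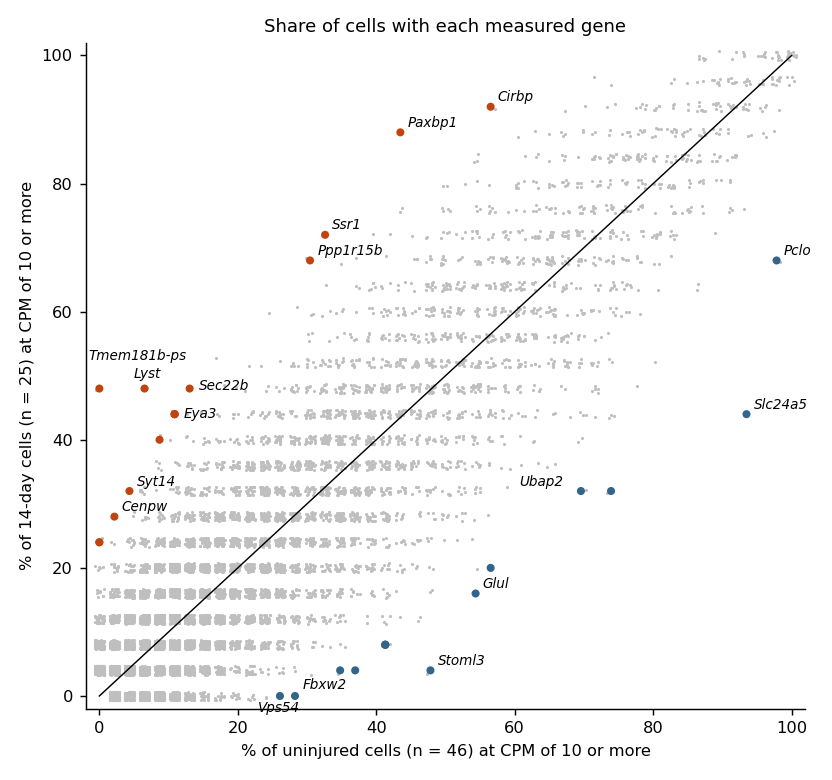
Percent of cells with each of 9992 measured genes at 10 CPM or above, 14 days (n = 25, vertical) against uninjured (n = 46, horizontal), with grey points jittered. Coloured points are the 29 genes whose exact 95% intervals do not overlap, 15 above and 14 below the line of equality.

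A separate rule asked for a mean of at least 50 CPM and a share of at least 30% in the higher group, shares at least 20 points apart, and a 2-fold size that held without the highest cell of each group. Of 9329 measured genes open to this rule, 72 met it on the higher and 79 on the lower side. Among genes that met it outside the lists, the highest ratios after Tmem181b-ps were those of Ube4a, a ubiquitin ligase, at 186.6 CPM at 14 days and 7.95 CPM in uninjured cells, and Amotl1, an angiomotin family junction protein, at 354.4 CPM at 14 days and 18.8 CPM uninjured. Nhsl1 was found in 52% of cells at 14 days and 17.4% of uninjured cells. Stub1, a ubiquitin ligase that works with chaperones, was at 89.4 CPM at 14 days and 10.8 CPM uninjured, Vps11, of the endosomal tethering complexes, at 147.3 CPM at 14 days and 18.7 CPM uninjured, and Atg4b, an autophagy protease, at 53.5 CPM at 14 days and 6.68 CPM uninjured. Slc3a2, the heavy chain of amino acid transporters, was at 76.1 CPM at 14 days and 9.55 CPM uninjured. The others were Mynn, Tmem87b, Ppme1, Twistnb, Pkn2, Cib1 and Stox2, with log2 ratios between 2.59 and 3.84.

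Among genes that met this rule outside the lists, the lowest ratios were those of Gramd1c, a sterol transfer protein, at 12.3 CPM at 14 days and 322.4 CPM in uninjured cells, and Ugcg, the enzyme that makes glucosylceramide, at 7.35 CPM at 14 days and 184.4 CPM uninjured. Osbpl3, an oxysterol-binding protein relative, was at 14.2 CPM at 14 days and 239.9 CPM uninjured, and Esyt2, an extended synaptotagmin, at 18.2 CPM at 14 days and 255.7 CPM uninjured. Dlg2, a postsynaptic scaffold, was found in 8% of cells at 14 days and 30.4% of uninjured cells, Sdc3, a neuronal syndecan, in 20% at 14 days and 47.8% uninjured, and Tub, a protein of receptor traffic into cilia, in 20% at 14 days and 43.5% uninjured. Suv420h2, a methyltransferase of heterochromatin, was in 12% at 14 days and 45.7% uninjured at means of 5.86 CPM at 14 days and 56.9 CPM uninjured. The remaining named genes were Tmem117, Crbn, Ufm1, Dnajc21, Suco, Grsf1 and Rnf128, with log2 ratios between -4.36 and -3.02.

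Among neural transcription factors, 5 of 27 measured were at least 2-fold higher, near the 22% of all genes, and 1 at least 2-fold lower, against 29.9%. Id3, an inhibitor of proneural factors, was found in 36% of cells at 14 days and 10.9% of uninjured cells at means of 104.2 CPM at 14 days and 25.9 CPM uninjured, St18, a zinc finger factor, in 32% at 14 days and 10.9% uninjured at 120.6 CPM at 14 days and 38.1 CPM uninjured, and Id1, a relative of Id3, in 24% at 14 days and 8.70% uninjured.

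Few markers of supporting cells were measured. Of 14 sustentacular genes 6 passed the limit, and 6 of 6 were higher at 14 days, against 45.2% of all genes. At least 2-fold higher were 5 (Cbr2, Muc2, Sec14l3, Cyp2a5 and Sox9), against 22%, and 3 without the highest cell of each group per gene. Summed over the list, CPM averaged 265.1 at 14 days and 44.1 in uninjured cells. A member could thus pass the limit through 14 days alone, so the limit itself favours a higher count. The top 2 cells held 50.2% of the sum at 14 days and 60.9% in uninjured cells. Cyp2a5, a detoxifying enzyme, was found in 28% of cells at 14 days and 8.70% of uninjured cells, and Sec14l3, a lipid-binding protein, in 24% at 14 days and 10.9% uninjured. A summed level of 1000 CPM or more was found in 3 of 25 cells at 14 days and 0 of 46 uninjured cells. Their part in the other differences was not tested.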

How the data were processed

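The authors deposited a count table and an FPKM table, each with cells as columns. The count table as deposited by the authors was used as signal, estimated fragments on a scaled unit, because its column totals were nearly equal and 99.9% of its nonzero values were not whole. No source used here states how the scaling was done. FPKM as deposited by the authors was used to compare levels per length. The submitters' processing notes list FastQC, STAR 2.5.2a, Cuffnorm, Cufflinks 2.2.1 and build mm9 without giving their roles. The annotation is not given in the sources used here.

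From the signal, CPM of the column sum was computed with Python 3.11.15, pandas 2.3.3, numpy 2.4.6 and scipy 1.17.1, and figures were drawn with matplotlib 3.10.9. Of 23308 entries, 27 with names altered into dates (0.418% of the signal) were left out. Fragments per cell were recovered from the value of 1 fragment (tolerance 0.02). At the median depths 10 CPM is about 11 fragments at 14 days and 8.48 in uninjured cells. Reads carry no molecular identifiers, so intervals cover counting error only. No doublet caller was run. No columns were identical, and the highest correlation of log2 CPM between cells was 0.551.

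Measured genes averaged 5 CPM or above in one group or both, and the pseudocount was 1. A share of 0 leaves room for 3 cells of the total. The text names genes of 46 lists. Outside them it names the 15 highest and 15 lowest ratios among genes with, in the higher group, a mean of at least 50 CPM and detection in at least 30% of cells, a difference in share of at least 20 points in the direction of the ratio, and a direction and 2-fold size that held without the highest cell of each group. Olfr, Vmn, Gm, Rik, mitochondrial and Y-linked genes and Xist were left out of that rule. Genes whose intervals did not overlap (29) were also named, after their values were seen. The members and lists were chosen with earlier results of these data known. The ratio and the fragment step were tested on simulated data. Alternatives changed the pseudocount, the low-level filter, the gene minimum, the scaling, the table, the depth, the detection limit and the libraries used. Some genes of the lists are not reported here.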

Additional observations from a re-analysis of the deposited data

How the results depend on the processing

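No paired analysis was possible. The labels number the libraries through the series, so that the groups share no number, and no result comes from a test. Every uninjured library also has a lower number than every library at 14 days, so number and group cannot be separated. Libraries left out were 15 of 61 uninjured and 1 of 26 at 14 days. The labels do not say what the numbers stand for, and a part of processing order in the differences was not tested. Change under the alternatives was scored for a chosen set of results only. These were the counts of genes at least 2-fold higher or lower, of mature markers lower and of cells with a receptor. The log2 ratios and shares of Stoml3, Ezh2, Hdac2 and Suz12 completed the set. Within it, 9 values moved by more than 1.5 times or out of the interval of the value reported, and 2 turned. Other values given above also turned, among them Cnga2, Ebf2, Tex15, Crmp1, Sec22b, Top2a and the deacetylase median. The count of genes at least 2-fold higher was 2198, against 1398 with a pseudocount of 10 CPM and 1225 without the highest cell of each group. The count at least 2-fold lower was 2984, against 1915 with a pseudocount of 10 CPM and 1840 at a mean CPM of 20 or more, where fewer genes were measured. The log2 ratio of Stoml3 was -5.45 with a pseudocount of 10 CPM, -5.89 in libraries with 2000 or more genes, -8.43 without the highest cells and -5.79 with pooled fragments. Ezh2 turned to -0.066 in libraries with a Y-linked gene and no Xist, and the share of cells with Suz12, 3.39 points lower at 14 days, turned to 0.609 points higher with median-of-ratios scaling. The cause was not tested. Mature markers lower at 14 days numbered 16 to 19, Suz12 lay between -2.50 and -1.94, and the share of 14 day cells with a receptor between 72% and 76%. Leaving out the microvillar-rich library and the 3 libraries with 5000 or more genes was chosen after seeing the data. The counts of 25 and 46 cells and the unknown number of animals limit what these shares can show.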
